A study of Mus musculus with 8 samples.

Results

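Mouse liver was examined for transcripts of 10 carriers that move bile acids, phospholipid, bilirubin conjugates and other organic anions across the hepatocyte surface. The members were taken by gene symbol from the platform annotation, with the brightest probe set (the group of array probes that measures a transcript) kept for each gene. All 10 genes were found among the 22180 genes that have a probe set with exactly 1 symbol, and all 10 were among the 13449 genes bright enough to test. The group was divided by membrane. Abcb11, Abcb4, Abcc2 and Atp8b1 sit in the canalicular membrane, which faces bile, and Slc10a1, Slco1a1, Slco1a4, Slco1b2, Slco2b1 and Abcc3 in the sinusoidal membrane, which faces blood.

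The series asked how the E167K variant of Tm6sf2 acts on glucose and lipid metabolism. It holds whole-transcript arrays of 8 liver RNA samples from male mice labelled C57BL/6J, 4 from wild type littermates and 4 from mice carrying the variant as a knock-in. Nothing in the labels says outright that the arrays come from different animals, and the p-values then cover only the spread among the 8 samples, which may be technical. The labels also give no age or hour of collection, and they contradict each other on diet: the text on the series names a high-fat diet for 20 weeks, while the note on each sample names a fat-free, sucrose-rich diet or chow for 14 weeks. No result below is tied to a diet. A coding variant need not change the level of Tm6sf2, so that level was not used to check the genotype labels, which were taken as given.

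Bile forms when transporters at the canalicular membrane pump bile acids, phospholipid, sterols and conjugated organic anions into the canaliculus, and water follows. Most bile acids return from the intestine in portal blood and are taken up again at the sinusoidal membrane by the sodium-dependent carrier Slc10a1 (NTCP) and by sodium-independent organic anion transporting polypeptides of the Slco family. The bile acid receptor FXR (Nr1h4) is known to raise canalicular export and to restrain uptake and synthesis, so that hepatocyte bile acids stay low. Tm6sf2 acts in a different place, the endoplasmic reticulum, where very low density lipoprotein is loaded with lipid.

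The expression values are log2 values normalized between arrays by the authors, and changes are knock-in minus wild type. Array medians lay at 3.73 to 3.80, and any pair of arrays correlated at 0.973 to 0.980 over all probe sets. A value was read as dim when it lay below the 40th percentile of its array, taken over probe sets with exactly 1 symbol. That limit was 3.46 to 3.50. All 10 carriers lay above that limit on all 8 arrays, the lowest single value being 9.05 for Abcc3. All 10 listed hepatocyte markers were tested, and the log2 of their summed level was 16.19 to 16.21 on wild type and 16.19 to 16.25 on knock-in arrays. In bulk liver, fewer cells of a type and less RNA per cell cannot be told apart.

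The promoters of 4 carriers are shown because the results turn on these genes: the canalicular relatives Abcb11 and Abcb4, of which only Abcb4 had groups that lay apart, and the uptake carriers Slco1a1 and Slco1a4, which varied most between arrays. Each run is the 250 bases before the RefSeq start in GRCm38.p6, 5′ to 3′ on the strand of the gene, and capitals mark AGGTCA on either strand, the half-site that many nuclear receptors bind. The windows are chr2:69342617-69342866 (minus strand) for Abcb11, chr5:8893471-8893720 (plus strand) for Abcb4, chr6:141946963-141947212 (minus strand) for Slco1a1 and chr6:141856221-141856470 (minus strand) for Slco1a4.
Abcb11: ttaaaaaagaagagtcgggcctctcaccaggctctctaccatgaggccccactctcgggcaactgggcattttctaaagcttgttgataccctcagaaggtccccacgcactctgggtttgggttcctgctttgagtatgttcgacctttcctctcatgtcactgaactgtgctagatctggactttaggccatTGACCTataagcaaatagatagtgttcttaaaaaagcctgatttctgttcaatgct
Abcb4: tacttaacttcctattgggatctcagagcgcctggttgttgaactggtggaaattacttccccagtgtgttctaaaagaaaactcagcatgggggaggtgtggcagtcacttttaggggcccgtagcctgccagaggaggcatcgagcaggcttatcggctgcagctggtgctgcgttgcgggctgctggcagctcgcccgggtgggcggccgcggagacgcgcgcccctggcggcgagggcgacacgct
Slco1a1: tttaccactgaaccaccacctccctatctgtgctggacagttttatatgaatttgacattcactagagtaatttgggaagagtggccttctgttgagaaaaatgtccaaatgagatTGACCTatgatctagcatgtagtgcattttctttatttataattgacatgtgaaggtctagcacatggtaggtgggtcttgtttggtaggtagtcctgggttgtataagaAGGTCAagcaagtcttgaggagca
Slco1a4: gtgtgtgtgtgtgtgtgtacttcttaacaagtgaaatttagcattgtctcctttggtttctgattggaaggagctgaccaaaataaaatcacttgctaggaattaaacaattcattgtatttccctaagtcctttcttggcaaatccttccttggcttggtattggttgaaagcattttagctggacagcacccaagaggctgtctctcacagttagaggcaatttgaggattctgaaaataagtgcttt

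The table of promoters held 8 of the 10 carriers (all but Atp8b1 and Abcc3) with 11 windows. A half-site was found in 5 of the 11 windows, those of Abcb11, Abcc2, Slco1a1, Slco1b2 and the second start of Slc10a1, against 14.0% of all 32536 distinct promoter windows of the same length. The Slco1a1 window held 2, at 134 to 129 and at 24 to 19 bases before the start. The Abcb11 window held 1, at 56 to 51 bases before the start, and the Abcb4 and Slco1a4 windows held none. A pair of half-sites facing each other with 1 base between them, the form FXR is known for, was in 0 of the 11 windows with these exact letters and in 0.00615% of all windows. The search allowed no mismatch, so a count of 0 says little about imperfect pairs. In the Abcb11 window the marked TGACCT follows aggccat, so the stretch differs from such a pair by 1 letter. Whether FXR binds there was not tested. The E-box CACGTG, which clock activators bind, was in 0 of the 11 and in 6.04% of all. These matches describe letters in a short window and were not tested against the expression values.

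Measured changes were no larger than 0.20 in either direction in 8 of the 10 carriers, Abcb4 and Slco1a1 being the exceptions, both lower in the knock-in. Of the 10 carriers, 0 passed limma's test across all genes at an adjusted p of 0.05, where 0.0669% of tested genes (9 of 13449) passed. At unadjusted p under 0.05 there was 1 carrier, Abcb4, lower in the knock-in, or 1 of 10 against 11.3% of tested genes (5.29% lower and 6.01% higher). Abcb4 was also the 1 carrier whose groups did not overlap, against 7.16% of tested genes (3.2% lower and 3.96% higher). Both counts are near the background, so neither sets the carriers apart. In 4 of the fits that left out a single array the count became 2. Atp8b1 joined Abcb4 when wild type array 2 was left out (limma unadjusted p = 0.0409, adjusted p = 0.463) and when knock-in array 2 was (limma unadjusted p = 0.0309, adjusted p = 0.507). Slco2b1 joined it when wild type array 3 was left out, and Slco1a1 when knock-in array 4 was, with the values given for these genes below. It was also 2 with both trended priors and with the clock score described below, Atp8b1 being the second each time, so that Atp8b1 lay under 0.05 in 5 of 18 alternatives. Changes of the 10 ran from -0.36 for Abcb4 to 0.20 for Slco1a4 with a median of 0.09, and the median over all tested genes was 0.0046.

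**Figure D1:**
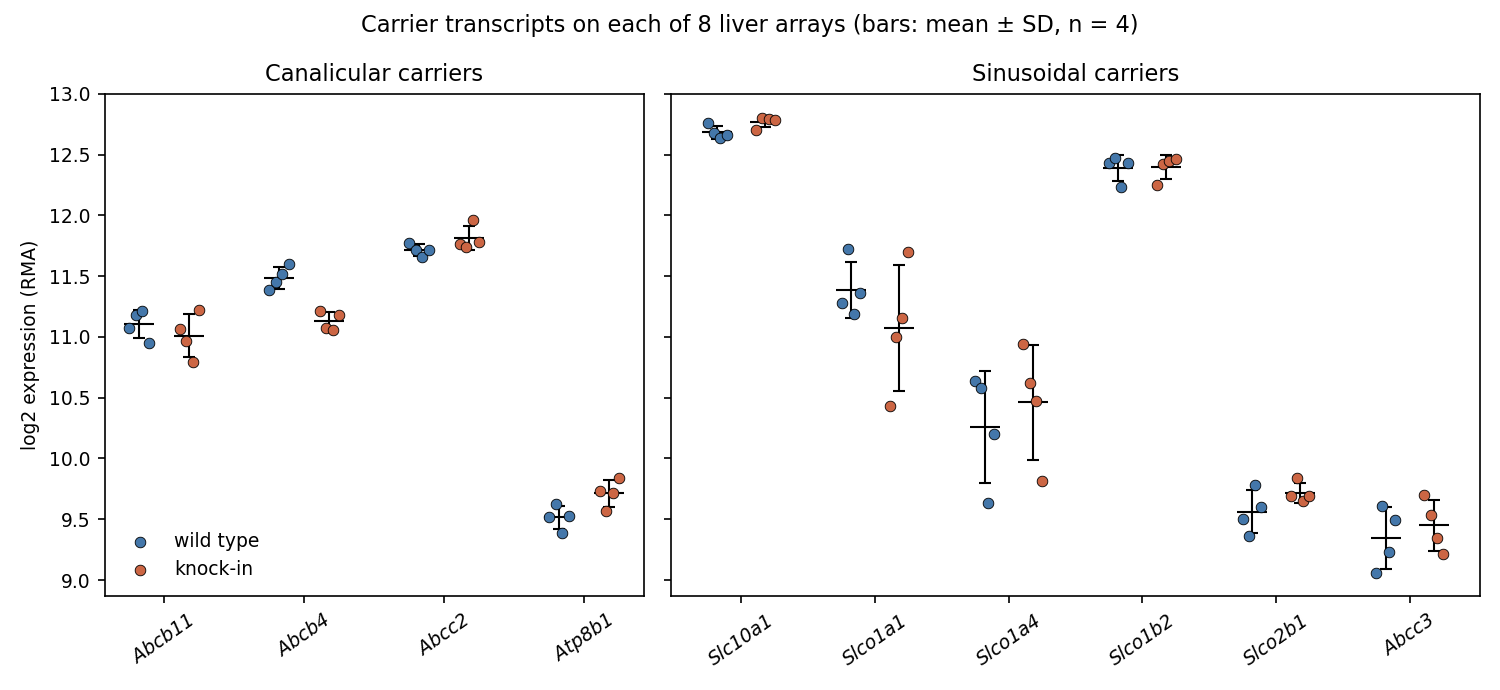
Log2 expression of each carrier on the 8 arrays, with wild type in blue and knock-in in orange, 4 arrays each; horizontal marks are means and bars are SD. In Abcb4 the knock-in values (11.06 to 11.21) all lie below the wild type values (11.38 to 11.60), and in the other 9 carriers the groups overlap. Heights of different genes come from different probes and are not compared.

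The canalicular carriers held the clearest difference and no common direction. Abcb4 (MDR2 in the mouse) flips phosphatidylcholine into the outer leaflet of the canalicular membrane, from which bile acids take it into mixed micelles. Its values were 11.38, 11.45, 11.52 and 11.60 on wild type arrays 1 to 4 and 11.21, 11.07, 11.06 and 11.18 on knock-in arrays 1 to 4. Every knock-in array lay below every wild type array. The means were 11.49 ± 0.09 and 11.13 ± 0.08 (SD, n = 4 each), a change of -0.36 (SE 0.08, 95% interval -0.55 to -0.16), or 0.781 times the wild type level. The limma unadjusted p was 0.00226 and the adjusted p 0.180, so Abcb4 did not pass across all genes, and the exact two-sided permutation p was 0.0286, the smallest that 4 against 4 arrays allow. With a prior variance that follows the mean level, limma gave Abcb4 an adjusted p of 0.0394, or 0.0374 in the robust form, under which 75 and 73 genes passed in all.

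Abcb11 (BSEP) is the pump for conjugated bile acids and the main driver of bile flow. It read 11.08, 11.18, 11.21 and 10.95 on wild type arrays and 11.06, 10.96, 10.80 and 11.22 on knock-in arrays. Knock-in array 4 was the highest of all 8 and knock-in array 3 the lowest, so the groups overlapped throughout. By limma the change was -0.09 with an SE of 0.11 (95% interval -0.34 to 0.16, adjusted p = 0.809). It ran from -0.02 without knock-in replicate 3 to -0.16 without knock-in replicate 4, and leaving out wild type arrays 3 and 4 in turn gave -0.06 and -0.14. The measured change of Abcb4, -0.36, lies just outside the main 95% interval of Abcb11. Its own interval, -0.55 to -0.16, overlaps that of Abcb11, and the difference between their changes was not tested.

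Atp8b1 (FIC1) works with Tmem30a as a flippase that returns phospholipids to the inner leaflet and so keeps the canalicular membrane resistant to bile acids. Its wild type values were 9.52, 9.63, 9.39 and 9.52, and its knock-in values 9.73, 9.57, 9.72 and 9.84. Only knock-in array 2 lay inside the wild type range. The change of 0.20 (SE 0.09, 95% interval -0.01 to 0.41) had a limma unadjusted p of 0.0580, an adjusted p of 0.454 and an exact permutation p of 0.0571. The 95% intervals of Abcb4 and Atp8b1 did not overlap, and the difference between their changes was not tested. Tmem30a, named as its partner, was at -0.05 (SE 0.09, limma adjusted p = 0.892).

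Abcc2 (MRP2) exports conjugated bilirubin and glutathione conjugates. It read 11.77, 11.72, 11.66 and 11.71 on wild type arrays and 11.77, 11.74, 11.96 and 11.78 on knock-in arrays. Knock-in array 3 was the highest and the other knock-in arrays lay close to the wild type ones. By limma Abcc2 was higher by 0.10 (SE 0.08, adjusted p = 0.709), with a 95% interval of -0.09 to 0.29, and the change was 0.05 without knock-in replicate 3.

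Among the sinusoidal carriers, 5 of 6 were higher in the knock-in and 1 lower, with none past either p limit and no group lying apart. Slc10a1 (NTCP), which takes up conjugated bile acids together with sodium, read 12.76, 12.68, 12.64 and 12.66 on wild type arrays and 12.71, 12.80, 12.79 and 12.79 on knock-in arrays. Wild type array 1 lay above knock-in array 1, and the other knock-in arrays lay above all wild type ones. Slc10a1 was higher by 0.09 (SE 0.07, 95% interval -0.08 to 0.26), with an adjusted p of 0.717 by limma and an exact permutation p of 0.0571. Slco1b2 (OATP1B2), the uptake carrier for unconjugated bile acids, bilirubin and many drugs in the mouse, read 12.43, 12.48, 12.24 and 12.43 on wild type arrays and 12.25, 12.42, 12.45 and 12.47 on knock-in arrays. Both groups covered almost the same range. Its change of 0.0040 (SE 0.09, adjusted p = 0.993 by limma) had a 95% interval of -0.20 to 0.21, and it changed sign under a further quantile normalization (-0.01), with centred array medians (-0.0043) and with array weights (-0.0031), and ran from -0.05 without wild type replicate 3 to 0.05 without knock-in replicate 1. Slc10a1 and Slco1b2 lie toward the top of a scale that ends at 13.66, where this kind of array compresses changes.

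Slco2b1 (OATP2B1), a carrier of sulfated steroids and drugs, read 9.50, 9.36, 9.78 and 9.60 on wild type arrays and 9.70, 9.84, 9.65 and 9.69 on knock-in arrays. Wild type array 3 lay among the knock-in values and the other wild type arrays below them. That put Slco2b1 higher by 0.16 (SE 0.11, 95% interval -0.08 to 0.39), at an adjusted p of 0.629 by limma. Leaving out wild type replicate 2 made this 0.09, and leaving out wild type replicate 3 made it 0.23 (limma unadjusted p = 0.0453, adjusted p = 0.472). Slco2b1 was also the 1 carrier with a further probe set, which was dim on 6 of 8 arrays and is not used in the main fit. Averaging both probe sets, as 1 alternative did, gave a change of 0.14 (SE 0.14, limma adjusted p = 0.762). Abcc3 (MRP3) is the 1 exporter of this membrane in the group and returns bile acid and bilirubin conjugates to blood when export into bile fails. It read 9.05, 9.61, 9.23 and 9.49 on wild type arrays and 9.70, 9.54, 9.35 and 9.21 on knock-in arrays. The highest value was a knock-in array and the lowest a wild type array, with the rest mixed. Abcc3 was higher by 0.10 (SE 0.15, 95% interval -0.24 to 0.45), at an adjusted p of 0.859 by limma. Its size rested on single arrays, being 0.0065 without wild type replicate 1, 0.02 without knock-in replicate 1, 0.06 without wild type replicate 3, 0.19 without wild type replicate 2 and 0.18 without knock-in replicate 4.

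**Figure D2:**
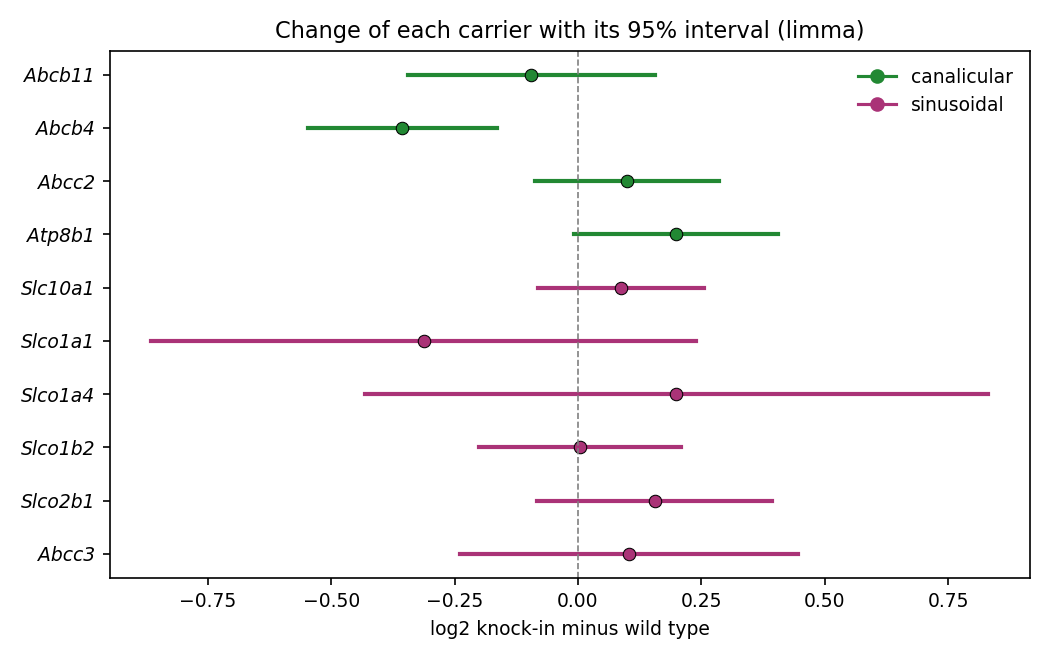
Change of each carrier on the log2 scale (knock-in over wild type), drawn with its 95% interval from limma over 8 arrays; green marks canalicular and purple sinusoidal carriers. The interval of Abcb4 (-0.55 to -0.16) lies below 0, that of Atp8b1 (-0.01 to 0.41) barely reaches it, and those of Slco1a1 and Slco1a4 are the widest of the 10.

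Slco1a1 and Slco1a4 varied far more than the rest. Over the 8 arrays their SDs were 0.41 and 0.45 on the log2 scale, against 0.06 to 0.22 for the other 8 carriers. Slco1a1 (OATP1A1) takes up bile acids and steroid conjugates and is known in mice as a male-predominant gene under growth hormone control. It read 11.28, 11.72, 11.19 and 11.36 on wild type arrays and 10.43, 11.00, 11.16 and 11.70 on knock-in arrays. The 3 lowest values were knock-in arrays, while knock-in array 4 lay just below the highest wild type array. The means were 11.39 ± 0.23 and 11.07 ± 0.52 (SD, n = 4 each). The difference, -0.31 with an SE of 0.24, had a 95% interval of -0.86 to 0.24 and an adjusted p of 0.686 by limma. Single arrays set its size, which was -0.52 without knock-in replicate 4 (limma unadjusted p = 0.0301, adjusted p = 0.376), -0.20 without wild type replicate 2 and -0.10 without knock-in replicate 1.

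Slco1a4 (OATP1A4), a carrier of bile acids and cardiac glycosides, is known as a female-predominant gene in mouse liver and as a target of the xenobiotic receptor PXR. It read 10.63, 10.58, 9.63 and 10.20 on wild type arrays and 10.94, 10.62, 10.48 and 9.81 on knock-in arrays. Wild type array 3 and knock-in array 4 were low, and the groups overlapped across most of the range. The difference, 0.20 with an SE of 0.28, had a 95% interval of -0.43 to 0.83 and an adjusted p of 0.852 by limma. It became -0.01 without wild type replicate 3, 0.04 without knock-in replicate 1, 0.32 and 0.31 without wild type replicates 1 and 2, and 0.42 without knock-in replicate 4. Slco1a1 and Slco1a4 belong to a cluster of related genes, so part of the signal of one may come from another, which was not tested. Slco1a5 and Slco1a6, their neighbours in sequence, lay below the dim limit on all 8 arrays, while Slco1a1 and Slco1a4 both lay above it.

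Slco1a1 and Slco1a4 were set beside other sex-biased genes of the liver. The mean of 11 male-biased genes, a list without the carriers, was 9.71, 10.33, 10.16 and 10.45 on wild type arrays and 9.62, 9.88, 10.33 and 10.93 on knock-in arrays. Knock-in array 1 was lowest in both this mean and Slco1a1, and knock-in array 4 was highest in the mean and just below wild type array 2 in Slco1a1. The mean of 7 tested female-biased genes was 7.49, 6.40, 6.62 and 6.65 on wild type arrays and 7.83, 8.06, 8.04 and 6.29 on knock-in arrays. Knock-in arrays 1 to 3, the 3 lowest in Slco1a1, were the 3 highest there, and knock-in array 4 was the lowest of all. The difference between groups in this mean came from Cyp2b9, at 2.96 with SDs of 2.35 in wild type and 2.92 in knock-in arrays, and Cyp2a4, at 2.70. The other 5 genes had changes of -0.22 to 0.08, so the mean is largely a measure of these 2 cytochrome P450 genes, and Cyp2b9 is also in the list of CAR and PXR targets described below.

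Over the 8 arrays, Slco1a1 correlated with the male-biased mean at Pearson's r = 0.762 (exact permutation p = 0.0270, adjusted p = 0.377) and Spearman's rho = 0.643 (exact permutation p = 0.0962, adjusted p = 0.481). Without the 2 arrays farthest from the median of Slco1a1, r was 0.782, and it was 0.431 within wild type and 0.962 within knock-in arrays. With the female-biased mean, r was -0.741 (exact permutation p = 0.0219, adjusted p = 0.377) and rho -0.833 (exact permutation p = 0.0154, adjusted p = 0.386). Without the same 2 arrays that r was -0.773, and it was -0.497 within wild type and -0.728 within knock-in arrays. For Slco1a4 the signs were opposite, with r = -0.682 against the male-biased and 0.675 against the female-biased mean (exact permutation p = 0.0648 and 0.0774, adjusted p = 0.406 each). Its rho was -0.762 and 0.571 (exact permutation p = 0.0368 and 0.151, adjusted p = 0.386 and 0.588). Without its 2 farthest arrays r was -0.835 and 0.467, within wild type arrays -0.291 and 0.384, and within knock-in arrays -0.979 and 0.860. These are 4 of 105 relations computed, between the carriers and 6 array scores and among the carriers, of which 10 by r and 11 by rho had an unadjusted exact permutation p under 0.05 and 0 passed after Benjamini-Hochberg adjustment by either measure.

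Relations of like size were found for other scores and carriers, so nothing particular to Slco1a1 or to the sex-biased genes is read from them. Slco1a1 had r = -0.695 against the mean of the CAR and PXR targets, which shares Cyp2b9 with the female-biased mean (exact permutation p = 0.0463, adjusted p = 0.404), and rho = -0.762 (exact permutation p = 0.0368, adjusted p = 0.386). Without its 2 farthest arrays that r was -0.527, and it was -0.574 within wild type and -0.761 within knock-in arrays. Abcb11 had r = -0.726 against the female-biased mean (exact permutation p = 0.05, adjusted p = 0.404) and rho = -0.786 (exact permutation p = 0.0279, adjusted p = 0.386), with r = -0.533 without its 2 farthest arrays, -0.283 within wild type and -0.835 within knock-in arrays. Against the clock score described below, Abcb11 had r = -0.771 and rho = -0.667 (exact permutation p = 0.0264 and 0.0831, adjusted p = 0.377 and 0.481). That r was -0.764 without its 2 farthest arrays, -0.765 within wild type and -0.918 within knock-in arrays. Abcb4, whose groups lay apart, had r = -0.881 and rho = -0.881 against the mean of the CAR and PXR targets (exact permutation p = 0.00905 and 0.00724, adjusted p = 0.377 and 0.380). That r was -0.799 without its 2 farthest arrays, -0.709 within wild type and -0.488 within knock-in arrays. Abcb4 and Slc10a1 ran opposite to each other, with r = -0.876 and rho = -0.929 (exact permutation p = 0.0131 and 0.00223, adjusted p = 0.377 and 0.234), and with r = -0.833 without the 2 arrays farthest in Abcb4, -0.802 within wild type and -0.754 within knock-in arrays.

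**Figure D3:**
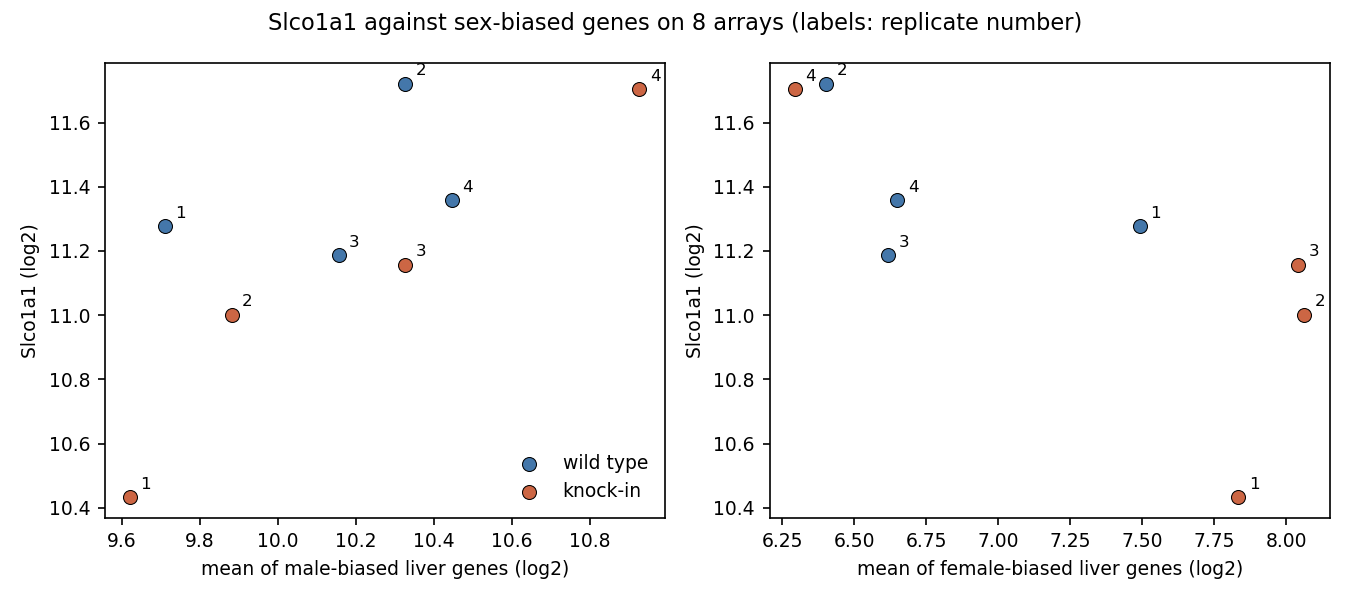
Log2 value of Slco1a1 on each array (vertical) against the mean log2 value of male-biased (left) and female-biased (right) liver genes, with wild type in blue, knock-in in orange and replicate numbers beside the points. Knock-in array 4 lies at the right end of the left panel and the left end of the right panel, and knock-in array 1 at the low end of Slco1a1.

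Set by membrane, the median change was 0.0024 over the 4 canalicular carriers, 2 higher and 2 lower, and 0.10 over the 6 sinusoidal carriers, 5 higher and 1 lower. Without Abcc3 the sinusoidal median was 0.09. Over all tested genes, 6877 were higher and 6572 lower. Array by array, the median deviation of the canalicular carriers from their wild type means was -0.01, 0.04, -0.01 and 0.0047 in wild type and 0.0052, -0.06, -0.05 and 0.09 in knock-in livers. For the sinusoidal carriers it was -0.01, 0.17, -0.14 and 0.0063 in wild type and 0.08, 0.16, 0.07 and 0.09 in knock-in livers. The groups overlapped in both, and the knock-in arrays lay inside the wild type range of the sinusoidal set.

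Beside the 10 carriers, 21 of 27 other listed transporters were tested, and 0 passed across all genes by limma, 2 being higher and 3 lower at unadjusted p under 0.05. Their median change was -0.05. Of all tested genes, 6.01% were higher and 5.29% lower at that unadjusted limit, and 3.96% were higher and 3.2% lower without overlap. These shares are the background for each list count below. Abcg8 and Abcg5, the paired canalicular exporters of sterols, were higher by 0.88 (SE 0.12, adjusted p = 0.05003, not past the threshold) and 0.71 (SE 0.14, adjusted p = 0.126). Groups did not overlap in either, nor in the phospholipid exporter Abcb4, which was lower, as held for 7.16% of tested genes in either direction. Abcg8 and Abcg5 were named for the smallest p of their list, and their contrast with Abcb4 was not tested. Slc10a5, an orphan relative of NTCP, was at -0.39 (SE 0.09, adjusted p = 0.164), also without overlap of the groups. The lactate and ketone body carrier Slc16a1 (MCT1) was at -0.61 (SE 0.15, adjusted p = 0.182), again without overlap. The prostaglandin carrier Slco2a1, whose groups overlapped, was at -0.33 (SE 0.12, adjusted p = 0.334). Abcb1a and Abcb1b, the drug exporters closest in sequence to Abcb4, were named outside the naming rule: they were at 0.14 (SE 0.23, adjusted p = 0.882) and -0.66 (SE 0.29, adjusted p = 0.444), and both were measured by probe sets of their own.

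Of 16 listed partners that anchor or deliver canalicular carriers, 14 were tested and 0 passed, with a median of -0.0028. Slc9a3r1 (NHERF1), a scaffold that ties membrane transporters to ezrin-type linkers, was higher by 0.38 (SE 0.10, limma adjusted p = 0.244) without overlap of the groups, and it was the 1 partner at unadjusted p under 0.05. Groups also lay apart in Slc9a3r2 at 0.15 (SE 0.08, limma adjusted p = 0.515) and Rdx at -0.04 (SE 0.07, limma adjusted p = 0.896), both named outside the rule. In bile acid synthesis and conjugation, all 13 listed genes were tested, 0 passed, and the median was -0.02. Cyp8b1, which sets the share of cholic acid, was at -0.74 (SE 0.14, limma adjusted p = 0.115) and Cyp7a1, the rate-limiting enzyme, at -0.84 (SE 0.24, limma adjusted p = 0.251). The knock-in arrays lay below all wild type arrays for both, and these were the 2 enzymes at unadjusted p under 0.05.

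Of 15 listed receptors and signalling genes that control carriers, 14 were tested and 0 passed, with a median of 0.04. Nr1i2 (PXR) was higher by 0.33 (SE 0.13, limma adjusted p = 0.358), the 1 gene of this list at unadjusted p under 0.05. FXR itself (Nr1h4) and its target Nr0b2 (SHP), a repressor of bile acid synthesis, named outside the rule, were at 0.15 (SE 0.11, limma adjusted p = 0.680) and 0.41 (SE 0.22, limma adjusted p = 0.531). All 11 tested genes of 15 listed CAR and PXR targets were higher with a median of 0.23, 3 of them at unadjusted p under 0.05 and 0 past the test. That list was chosen with earlier results of these arrays known, so its direction is no independent evidence. Those 3 were Cyp2a5 at 2.09 (SE 0.29, limma adjusted p = 0.0540), Sult5a1 at 1.40 (SE 0.21, limma adjusted p = 0.0552), whose place in the list is the least sure, and Gstt3 at 0.82 (SE 0.24, limma adjusted p = 0.263). The lower members of the list ran from Gstm1 at 0.0082 through Cyp2c29 at 0.12 and Cyp3a11 at 0.19 to Alas1 at 0.23. Cyp2b10 and Cyp2b13, also listed, lay above the dim limit on only 3 and 2 arrays and were not tested. The carriers known as targets of these receptors were Abcc2 and Abcc3 at 0.10 each and Slco1a4 at 0.20. Their groups overlapped (limma adjusted p = 0.709, 0.859 and 0.852). These changes lay within the range of the lower members, which would hold almost any small rise. Whether the carriers responded to these receptors was not tested. Of 12 listed NRF2 targets, 9 were tested with a median of -0.09 and 0 passed, and Srxn1 at -0.50 (SE 0.14, limma adjusted p = 0.252) was the 1 at unadjusted p under 0.05.

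**Figure D4:**
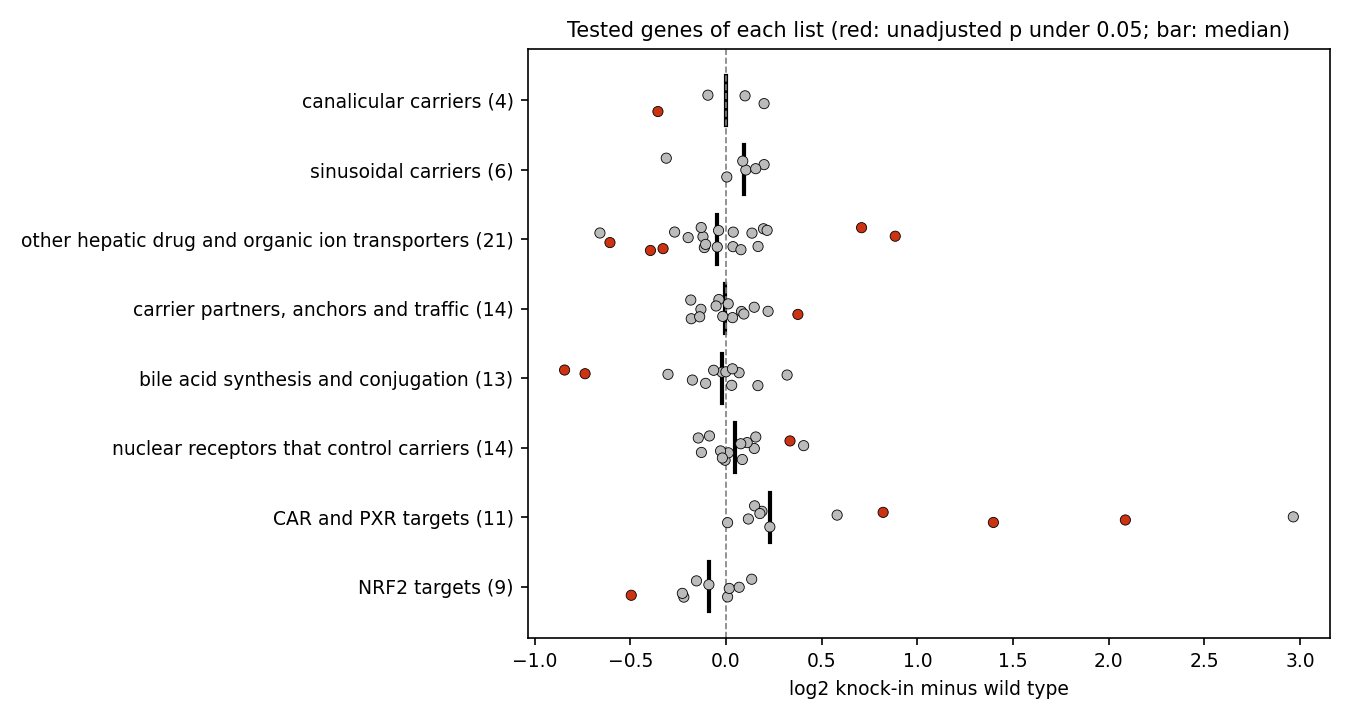
Log2 change of every tested gene in the carrier sets and 6 related lists, with the number of tested genes in brackets; red points have an unadjusted p under 0.05, and bars mark list medians. The carrier medians lie at 0.0024 and 0.10, and the CAR and PXR targets lie furthest to the right with a median of 0.23.

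Clock and acute phase genes were measured beside them. Of 10 tested clock outputs and repressors, 7 were higher at unadjusted p under 0.05 (Ciart at 2.51, Tef at 0.84 and Per3 at 1.49 with the smallest p), and all 3 activators were lower (Npas2 at -1.32, Arntl at -1.20, Clock at -0.29). Of all tested genes, 6.01% were higher and 5.29% lower at that limit. The clock and acute phase lists were also chosen with earlier results of these arrays known, so their directions are no independent evidence. The score of outputs minus activators was -1.39, -1.76, -1.08 and -0.08 on wild type and 0.28, 1.32, 1.31 and -0.42 on knock-in arrays. With that score as a covariate, Abcb4 had a change of -0.35 (SE 0.14, limma unadjusted p = 0.0382, adjusted p = 0.729), Atp8b1 had 0.34 (SE 0.14, adjusted p = 0.731) and Abcb11 turned to 0.18 (SE 0.14, adjusted p = 0.892). Slco1a1 went from -0.31 to -0.02 (SE 0.39), Slco2b1 from 0.16 to 0.03 (SE 0.17), Abcc3 from 0.10 to 0.0069 (SE 0.25) and Slco1a4 from 0.20 to 0.09 (SE 0.47). Abcc2 was at 0.06 (SE 0.14), Slc10a1 at 0.09 (SE 0.13) and Slco1b2 at 0.0062 (SE 0.15). In this fit 0 carriers passed by limma, with Abcb4 and Atp8b1 at unadjusted p under 0.05. The score was made from these same arrays and itself followed genotype, the groups overlapping only through wild type array 4 and knock-in array 4. The SE of Abcb4 widened from 0.08 to 0.14. Such a fit cannot tell a part of the clock from a loss of the genotype difference, so no conclusion is drawn from it. Of 14 tested acute phase genes, 6 were higher at unadjusted p under 0.05 (Saa3 at 1.07, Orm2 at 1.07 and Saa2 at 1.42 with the smallest p), and the mean of the list per array was 9.80 to 10.42 for wild type and 10.42 to 10.85 for the knock-in. Among male-biased genes Susd4 was at 0.73 and among female-biased genes Cyp2a4 at 2.70, the 1 gene at unadjusted p under 0.05 in each list, and their medians were 0.02 and -0.03. In all these lists 0 genes passed limma's test. The part of the acute phase and sex-biased genes in the carrier results was not tested, and that of the clock genes could not be told apart from genotype.

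Markers of other liver cells were close in both groups. The log2 of the summed cholangiocyte level was 8.21 to 8.42 on wild type arrays and 7.88 to 8.46 on knock-in arrays over 8 measured markers, with Cftr below the dim limit on all arrays. The same sum was 11.72 to 12.35 and 11.66 to 12.30 for 9 Kupffer cell markers, 12.41 to 12.49 and 12.47 to 12.57 for 8 sinusoidal endothelial markers, and 12.02 to 12.29 and 11.94 to 12.30 for 8 stellate cell markers. In these 4 lists and the hepatocyte list 0 genes passed limma's test. There was 1 gene at unadjusted p under 0.05, the endothelial Lyve1 at 0.73 (SE 0.23, adjusted p = 0.295), where 11.3% of all tested genes had such a p.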

How the data were processed

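The deposited table holds log2 expression values, 1 for each of 41345 probe sets on 8 arrays, which the authors had normalized between arrays; the submitters' processing notes name RMA and limma, without versions. Build and annotation version of the array are not stated in the labels. Such normalization removes a shift shared by most genes. Apart from that, this kind of array compresses changes at both ends of the scale. Arrays have no read depth, and their number limits the precision.

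Of the probe sets, 23521 carry exactly 1 gene symbol, 1814 several, and 16010 are not listed with a gene. Symbols were checked by Entrez identifier against RefSeq GRCm38.p6 (23328 matched, 0 changed). Genes with at least 4 of 8 arrays above the array's 40th percentile, taken over probe sets with exactly 1 symbol, were tested. Genotype was the single term of a limma fit (version 3.58.1, R 4.3.3), with two-sided p-values adjusted after Benjamini and Hochberg over 13449 genes and a threshold of 0.05. Exact tests were permutations of the 8 arrays. The fit was tested on simulated data. Correlations ran in Python 3.11.15.

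The carriers, the gene lists, the tests and the alternatives were chosen with earlier results of these arrays known. All 10 carriers are named; from each other list, up to 3 genes per direction with the smallest unadjusted p under 0.05 are named. Exceptions are marked in the text, apart from Tmem30a, Cyp2b9, Slco1a5, Slco1a6, Cyp2b10, Cyp2b13, Gstm1, Cyp2c29, Cyp3a11, Alas1 and Cftr, which are also named outside this rule. Of the 4 same-numbered pairs of arrays, deviations from group means correlated at -0.11 to 0.10, so replicate numbers were not taken to pair samples.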

Additional observations from a re-analysis of the deposited data

Results flagged for a closer look

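In Slc10a1, knock-in replicate 1 stood apart from the other knock-in arrays, at 12.71 against 12.79 for the nearest and 12.80 for the highest. Its gap was 0.855 of the whole range of the 4 arrays, above Dixon's critical value for 4 values. It was the 1 array so marked among 20 groups of 4 examined, and chance marks about 1 in 20. Without it the change of Slc10a1 was 0.11 (limma adjusted p = 0.696), against 0.09 with it.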

How the results depend on the processing

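Across 18 alternatives, 0 of 10 carriers passed except with the trended prior and with the trended and robust prior, where 1 passed each time, Abcb4. Abcb4 stayed at -0.39 to -0.32 with unadjusted p under 0.05 in all 18. The canalicular median was 0.12 with the clock score as a covariate, against 0.0024, and -0.03 to 0.02 on leaving out 1 array; the sinusoidal median ran from 0.02 to 0.12. Signs turned for Abcb11 with the clock score (0.18), for Slco1a4 on leaving out 1 array (-0.0103 to 0.42), and for Slco1b2 with a further quantile normalization (-0.0128), centred array medians (-0.0043), array weights (-0.0031) and on leaving out 1 array (-0.0477 to 0.0523); the cause was not tested. The replicate block left the change of Abcb4 at -0.36 (limma adjusted p = 0.370) and called 0 carriers. The number of all genes past the threshold was 9, against 2 without a filter, 27 with the stricter filter, 75 and 73 with the trended priors, 25 with array weights, 24 on averaging probe sets, 2 with the replicate block, 1 with the clock score and 1 to 12 on leaving out 1 array.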
